A study of Mus musculus with 9 samples.

Results

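Regulatory T cells (Tregs) restrain other immune cells, and the transcription factor Foxp3 marks the lineage. The 4 libraries described here hold RNA of wild-type (WT) splenic Tregs, out of 9 libraries in the study, and were chosen by their label alone. The mice carried a Foxp3 allele that drives eGFP together with a tamoxifen-inducible Cre recombinase, and both copies of Hsp90b1, the gene for the chaperone gp96, were intact. All mice received tamoxifen, including those of the 5 KO libraries, in which Hsp90b1 was floxed and deleted in Tregs, so the WT cells had seen the drug and carried the reporter allele. From WT mice 1000000 GFP+ Tregs per sample were purified by flow cytometry, and the age and sex of each animal are not given in the labels. Because GFP reports Foxp3, the level of Foxp3 is a property of the gate and is no finding. The levels are a description of 1 condition, and no difference between groups or genes was tested.

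The unit is FPKM, reads per 1000 bases of exon and per 1000000 of a library total, so levels can be compared between genes within a library. That total was not the recovered reads, which were 1.15, 0.877, 0.891 and 0.864 times it in WT 1 to WT 4. Levels between libraries therefore depend on this scaling. Each gene is given by the median of WT 1 to WT 4 unless all values are shown. The 4 libraries held 13.9 to 16.7 times 1000000 recovered reads in genes with whole read numbers. Of 25500 entries, 12023 (47.1%) had a median above 1 FPKM, 5121 above 10 FPKM, 351 above 100 FPKM and 22 above 1000 FPKM. Among 15568 protein-coding entries 9852 (63.3%) lay above 1 FPKM. WT 1 stood apart from the other libraries before any gene was considered. Pearson correlations of log2(FPKM + 1) over the 9852 protein-coding genes were 0.933 to 0.946 between WT 1 and the others and 0.992 to 0.996 among WT 2, WT 3 and WT 4, as a description over genes, which are not replicates. No library pair was a duplicate. Squared differences of recovered reads averaged 8.78 to 182 times those of counting noise alone (chi-square per degree of freedom).

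In a resting T cell the T cell receptor and CD28 bring activation signals, and the IL-2 receptor brings the survival signal on which Tregs depend, because they make little IL-2 themselves. Foxp3 works with other transcription factors, among them Ikzf2 (Helios), to hold the Treg program, and CTLA-4 and CD25 are 2 of the surface proteins through which Tregs act. Tregs of the spleen are commonly divided into central cells, which keep lymphoid homing receptors, and effector cells, which carry activation and tissue homing receptors. Ribosomal protein, respiratory chain and antigen presentation genes run in all of these cells at high levels.

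The 5 markers of the lineage lay between 50.1 and 166 FPKM in every library. Foxp3 (chrX:7573644-7595245, GRCm38) had 83.0, 102, 106 and 102 FPKM in WT 1, WT 2, WT 3 and WT 4. Il2ra (CD25, the high-affinity IL-2 receptor chain, chr2:11642807-11693193) had 127, 114, 114 and 100.7 FPKM. Ctla4 (the inhibitory receptor that competes with CD28, chr1:60887000-60915832) had 111, 154, 166 and 146 FPKM. All 3 were thus within a narrow band in WT 2, WT 3 and WT 4, with WT 1 below them for Foxp3 and Ctla4 and above them for Il2ra. Ikzf2 (chr1:69531214-69687245) had 50.1, 85.7, 88.7 and 91.0 FPKM, and Tnfrsf18 (GITR, a costimulatory receptor, chr4:156026164-156028895) had 123, 78.7, 85.1 and 69.3 FPKM. Ikzf2 was lowest in WT 1 and Tnfrsf18 highest there. By median the order was Ctla4, Il2ra, Foxp3, Ikzf2 and Tnfrsf18, and each step of it held in 3 or 4 of the 4 libraries, but the ranges of all neighbours overlapped. Over WT 2, WT 3 and WT 4 alone only those of Il2ra and Foxp3 did. Exons of Foxp3 overlap the antisense transcript Flicr and 3 other genes. How reads in these overlaps were counted is not known, so its level is uncertain to that extent.

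**Figure D1:**
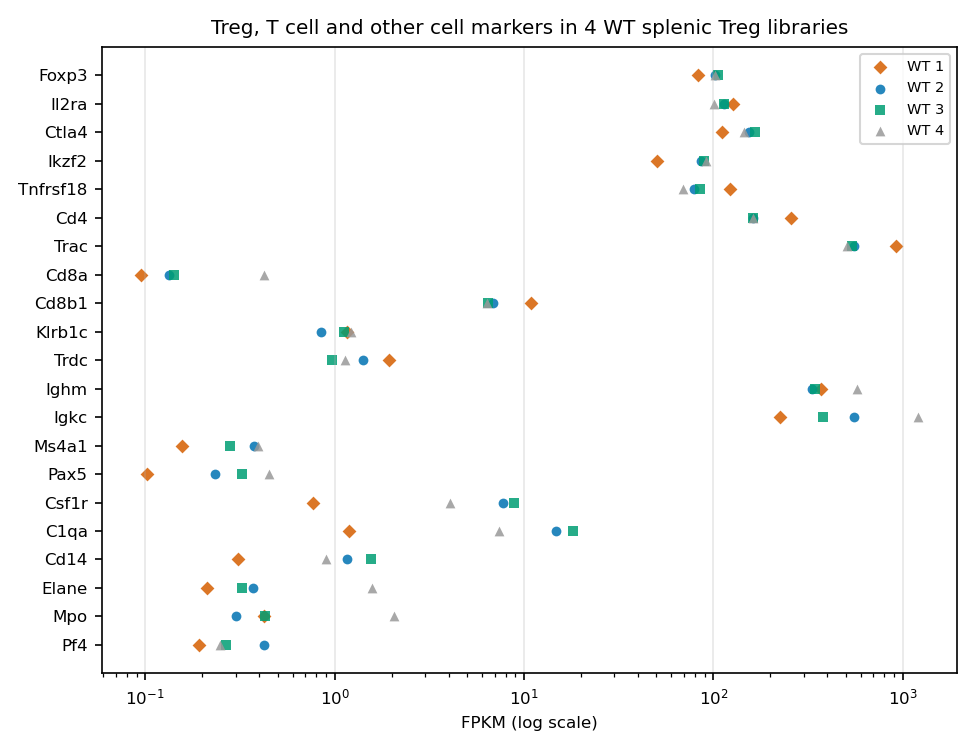
Level in FPKM on a log scale (horizontal) of Treg, T cell and other cell markers (vertical), with 1 point for each WT library. Foxp3, Il2ra, Ctla4, Ikzf2 and Tnfrsf18 lie between 50.1 and 166 FPKM, whereas Ms4a1, Pax5 and Cd8a stay at or under 0.449 FPKM in all 4 libraries. Other markers of the same cells lie higher. Ighm spans 334 to 570.3, Igkc 224 to 1207, Cd8b1 6.36 to 10.9 and C1qa 1.20 to 18.1 FPKM.

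Markers of other cells were read beside them. The alpha beta T cell lineage was plain, with Cd4 at 258, 162, 161 and 163 FPKM and Trac, the constant chain of the T cell receptor alpha gene, at 919, 552, 539.9 and 505 FPKM. Cd8a, which CD8 T cells need, had 0.0952, 0.134, 0.141 and 0.424 FPKM, although Cd8b1 had 10.9, 6.87, 6.45 and 6.36 FPKM. Of 12 B cell markers 5 (41.7%) exceeded 1 FPKM, against 63.3% of all protein-coding entries. Ms4a1 (CD20) had 0.157, 0.375, 0.280 and 0.393 FPKM and Pax5 a median of 0.280 FPKM, whereas Cd79b (a signaling chain of the B cell receptor) had 21.5, 14.6, 14.98 and 14.6 FPKM, and Cd79a, Ighd and Cd22 had medians of 4.25, 3.996 and 2.16 FPKM. Ighm (the mu heavy chain) had 368, 334, 344 and 570.3 FPKM and Igkc (the kappa light chain constant region) had 224, 554, 378 and 1207 FPKM. Igkc was highest in WT 4, where the plasma cell genes Igha at 294 FPKM and Jchain at 86.5 FPKM were also the highest of the 4 libraries. Of 10 plasma cell markers 7 (70%) exceeded 1 FPKM, near the 63.3% of all protein-coding entries. The summed level of the 10 was 301, 785, 549.8 and 1700.2 FPKM in WT 1, WT 2, WT 3 and WT 4. Sdc1 (CD138), a plasma cell surface protein, had only 0.127, 0.369, 0.371 and 0.716 FPKM. In bulk samples, fewer cells of a type and less RNA per cell cannot be told apart, and the part of other cells in these values was not tested.

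Macrophage genes formed a second such group. C1qa (a complement component of tissue macrophages) had 1.20, 14.8, 18.1 and 7.41 FPKM, and Csf1r (the macrophage growth factor receptor) had 0.765, 7.76, 8.90 and 4.09 FPKM, with WT 1 far under WT 2, WT 3 and WT 4 in both. The 15 myeloid and dendritic markers summed to 17.0, 72.9, 79.2 and 53.2 FPKM. Neutrophil markers summed to 0.767, 2.03, 1.54 and 7.65 FPKM over 10 genes and stromal and endothelial markers to 0.311, 0.372, 0.430 and 0.506 FPKM over 5 genes, none of them above 1 FPKM by median. Gata1, an erythroid and mast cell factor, had 15.9, 10.2, 10.5 and 8.34 FPKM although Hbb-bs (a beta globin) had 0.270, 0.954, 0.919 and 1.85 FPKM and Klf1 (a factor of red cell precursors) 0.0453, 0.120, 0.252 and 0.775 FPKM. Its level was thus not accompanied by the erythroid genes it is known for. Itgb3, in the platelet list, had 18.8, 15.4, 13.1 and 14.6 FPKM, while its platelet partner Itga2b had 0.114, 0.582, 0.694 and 0.750 FPKM and Pf4 (platelet factor 4) 0.192, 0.423, 0.267 and 0.247 FPKM.

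Promoter sequence was set beside level, as a feature that the choice of libraries did not use. RefSeq promoter windows (GRCm38.p6, 250 bases before the annotated start to 50 after it) were found for 12069 of the protein-coding genes, and a short motif was searched on both strands. The letters CCGGAAG, an ETS-type core as bound by factors such as Gabpa, stood in 39.7% of 58 windows found for the 79 ribosomal protein genes, 33.3% of 18 chaperone windows and 29.4% of 34 proteasome windows, against 15.9% of all windows. None of 12 Treg identity windows and none of 15 MHC class I windows held it. All windows include those of unexpressed genes, which held it less often, as the shares by level below show. The windows of 3 of the highest ribosomal genes with a match before the start and of 1 respiratory chain gene are printed, 120 bases up to the base before the annotated start, 5′ to 3′ along the gene, with the match on either strand in capitals.
Rps3a1, chr3:86142669-86142788 on the minus strand: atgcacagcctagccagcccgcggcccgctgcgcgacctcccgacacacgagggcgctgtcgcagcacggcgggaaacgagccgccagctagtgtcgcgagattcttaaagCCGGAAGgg
Rpl19, chr11:98026590-98026709 on the plus strand: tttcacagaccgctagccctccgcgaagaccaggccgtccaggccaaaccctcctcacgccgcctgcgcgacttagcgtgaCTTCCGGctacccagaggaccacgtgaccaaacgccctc
Rps21, chr2:180257259-180257378 on the plus strand: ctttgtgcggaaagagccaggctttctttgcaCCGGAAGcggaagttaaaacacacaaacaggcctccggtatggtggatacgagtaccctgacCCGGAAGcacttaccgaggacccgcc
Cox6a1, chr5:115348959-115349078 on the minus strand: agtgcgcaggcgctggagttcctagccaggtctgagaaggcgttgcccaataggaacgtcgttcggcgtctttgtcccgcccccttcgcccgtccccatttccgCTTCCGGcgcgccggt
Their genes had 1562, 899, 793 and 142 FPKM. Rps21 carried the match at 2 places.

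The MHC class I windows were of another kind. The letters CCAAT stood in 80% of them and TATAAA in 33.3%, against 38.4% and 8.20% of all windows. CCAAT was also in 90% of 20 endoplasmic reticulum chaperone windows and 82.6% of 23 cell cycle windows, and TATAAA in 61.5% of 13 helper cytokine windows. For 2 class I genes and 2 Treg genes the same stretch is shown with both motifs in capitals on either strand, since these genes are described by level.
B2m, chr2:122147567-122147686 on the plus strand: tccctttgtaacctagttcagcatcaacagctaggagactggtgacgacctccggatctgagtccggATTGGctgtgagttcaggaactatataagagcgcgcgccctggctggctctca
H2-D1, chr17:35262974-35263093 on the plus strand: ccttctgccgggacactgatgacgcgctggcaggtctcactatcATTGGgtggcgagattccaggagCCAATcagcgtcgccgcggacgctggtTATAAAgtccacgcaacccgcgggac
Foxp3, chrX:7579556-7579675 on the plus strand: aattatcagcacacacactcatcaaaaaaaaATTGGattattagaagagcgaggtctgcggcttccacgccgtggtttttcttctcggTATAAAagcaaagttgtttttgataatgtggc
Il2ra, chr2:11642672-11642791 on the plus strand: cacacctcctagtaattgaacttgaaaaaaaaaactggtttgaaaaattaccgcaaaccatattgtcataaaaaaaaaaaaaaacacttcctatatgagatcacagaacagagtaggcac
B2m and H2-D1 had 2104 and 959.6 FPKM. Il2ra had neither motif in the 120 bases, which says only that these letters are not there. By level, CCGGAAG stood in 2.51% of 876 windows of genes at 0 FPKM, 6.55% up to 1 FPKM, 19.8% up to 10 FPKM, 23.1% up to 100 FPKM and 19.3% of 228 above 100 FPKM. The shares with TATAAA were 14.7%, 11.3%, 5.65% and 6.19% over the first 4 of these classes and 15.8% above 100 FPKM. The median number of CpG pairs in a window was 6, 11, 21, 22 and 20 over the same 5 classes, 3.5 in chemokine receptor windows and 6.5 in Treg identity windows. Matches of CCAAT and TATAAA shared bases in 6 windows, and those of CCGGAAG shared bases with neither. These are counts of letters, and 1 window per gene was used, so genes with further starts are not covered.

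The highest transcripts were those of translation, energy and antigen presentation. The highest protein-coding entry was mt-Co1 (a subunit of cytochrome c oxidase encoded by mitochondrial DNA) with 8554, 4657, 4365 and 3674 FPKM in WT 1, WT 2, WT 3 and WT 4. Eef1a1 (an elongation factor that brings tRNA to the ribosome) had 9631, 3680.3, 3562 and 3124 FPKM and Rplp1 (a ribosomal stalk protein) 7851, 2904, 3040.2 and 2759 FPKM. B2m, the light chain of MHC class I, had 4367, 2117, 2091 and 2044 FPKM. All 4 were highest in WT 1. Tmsb4x (thymosin beta 4, which binds actin monomers) had 3677, 1845, 1807 and 1669.9 FPKM and H2-K1, a class I heavy chain, 2399, 1616, 1704 and 1735 FPKM. Trbc2, 1 of 2 constant segments of the T cell receptor beta chain, had 1891, 963, 1154 and 1033 FPKM. The 30 highest entries included 2 very short ones, Trbd1, a 12-base diversity segment of the T cell receptor beta locus at 2239, 1948, 2049 and 2154 FPKM, and Gm23935, a 57-base entry annotated as a microRNA at 22059, 2170.5, 91391 and 1000.7 FPKM, which took 24.4% of the summed FPKM of WT 3 and 0.367% of that of WT 4.

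**Figure D2:**
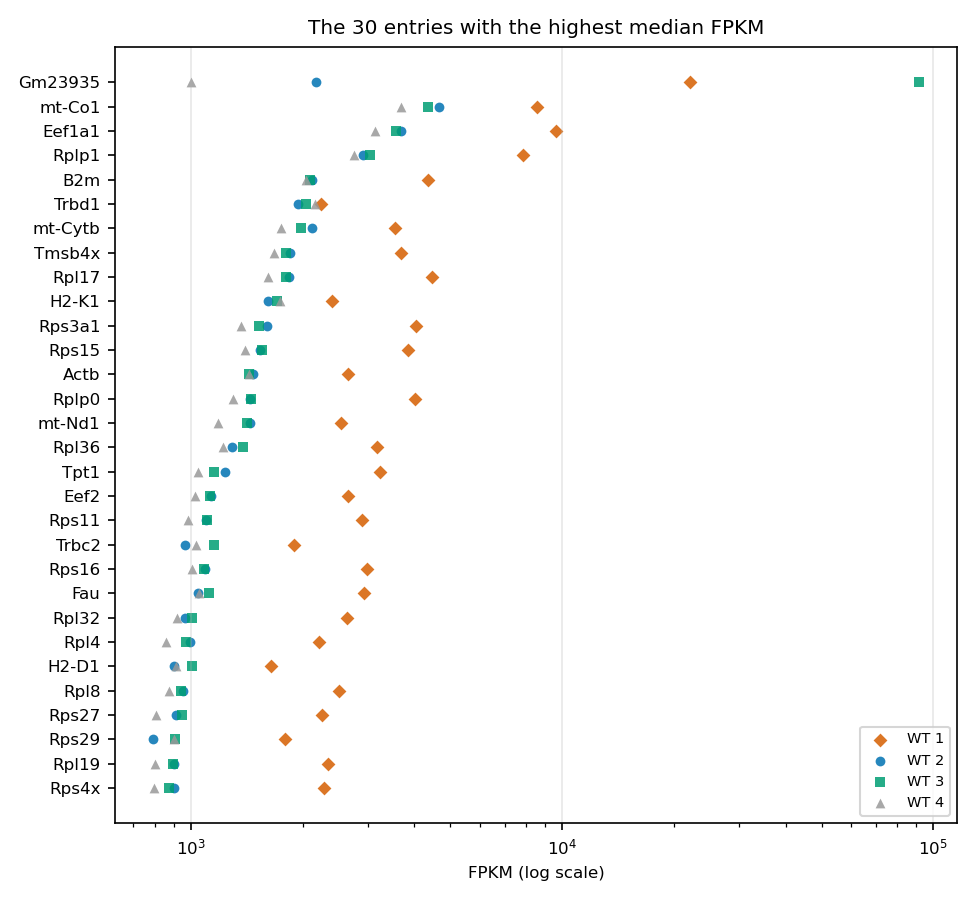
Level in FPKM on a log scale (horizontal) of the 30 entries with the highest median (vertical), 1 point for each WT library. WT 1 is the highest library for all of them except Gm23935, which spans 1000.7 to 91391 FPKM.

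The 100 highest entries held 36.7% of the summed FPKM by the median of the libraries, 43.5%, 29.9%, 47.1% and 28.0% in WT 1, WT 2, WT 3 and WT 4. Of these entries 89 were protein-coding. The 79 cytosolic ribosomal protein genes held 28.6, 18.4, 18.6 and 17.6% of the protein-coding FPKM, so WT 1 lay above a narrow band of the other 3. Of the 79, 75 were above 100 FPKM. Rpl13a, Rps10 and Rpl24 lay at or under 15.2 FPKM, and since exons of each overlap another annotated gene on the same strand these 3 values are uncertain. The 20 MHC class I genes held 2.54, 2.59, 2.66 and 2.79%, the 38 actin and adhesion signaling genes 4.29, 3.82, 3.79 and 3.75% and the 15 mitochondrially encoded genes 5.23, 4.79, 4.77 and 3.90%.

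Lists of genes were set side by side by the median of their members. Cytosolic ribosomal proteins came first at 463 FPKM, and GIMAP GTPases (proteins of lymphocyte survival) at 120.2 FPKM came after the mitochondrially encoded genes at 377 FPKM, whose median is 235 FPKM without WT 1. Treg identity genes had a median of 73.1 FPKM, central Treg genes 41.6 FPKM and effector Treg genes 17.3 FPKM. Chemokine receptors, integrins and Toll-like receptors had medians of 2.33, 1.69 and 1.35 FPKM. Among the 46 lists other than those of other cells, helper T cell cytokines were lowest at 0.186 FPKM, or 0.112 FPKM without WT 1. The median over all protein-coding entries was 3.58 FPKM. In every list, counts above 1 FPKM are to be read against that of all protein-coding entries, 63.3%. Counts above 10 and 100 FPKM are to be read against 5121 and 351 of all 25500 entries. Of the 15568 protein-coding entries, 4691 reached 10 FPKM, without counting Gm, immunoglobulin and T cell receptor segment symbols.

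**Figure D3:**
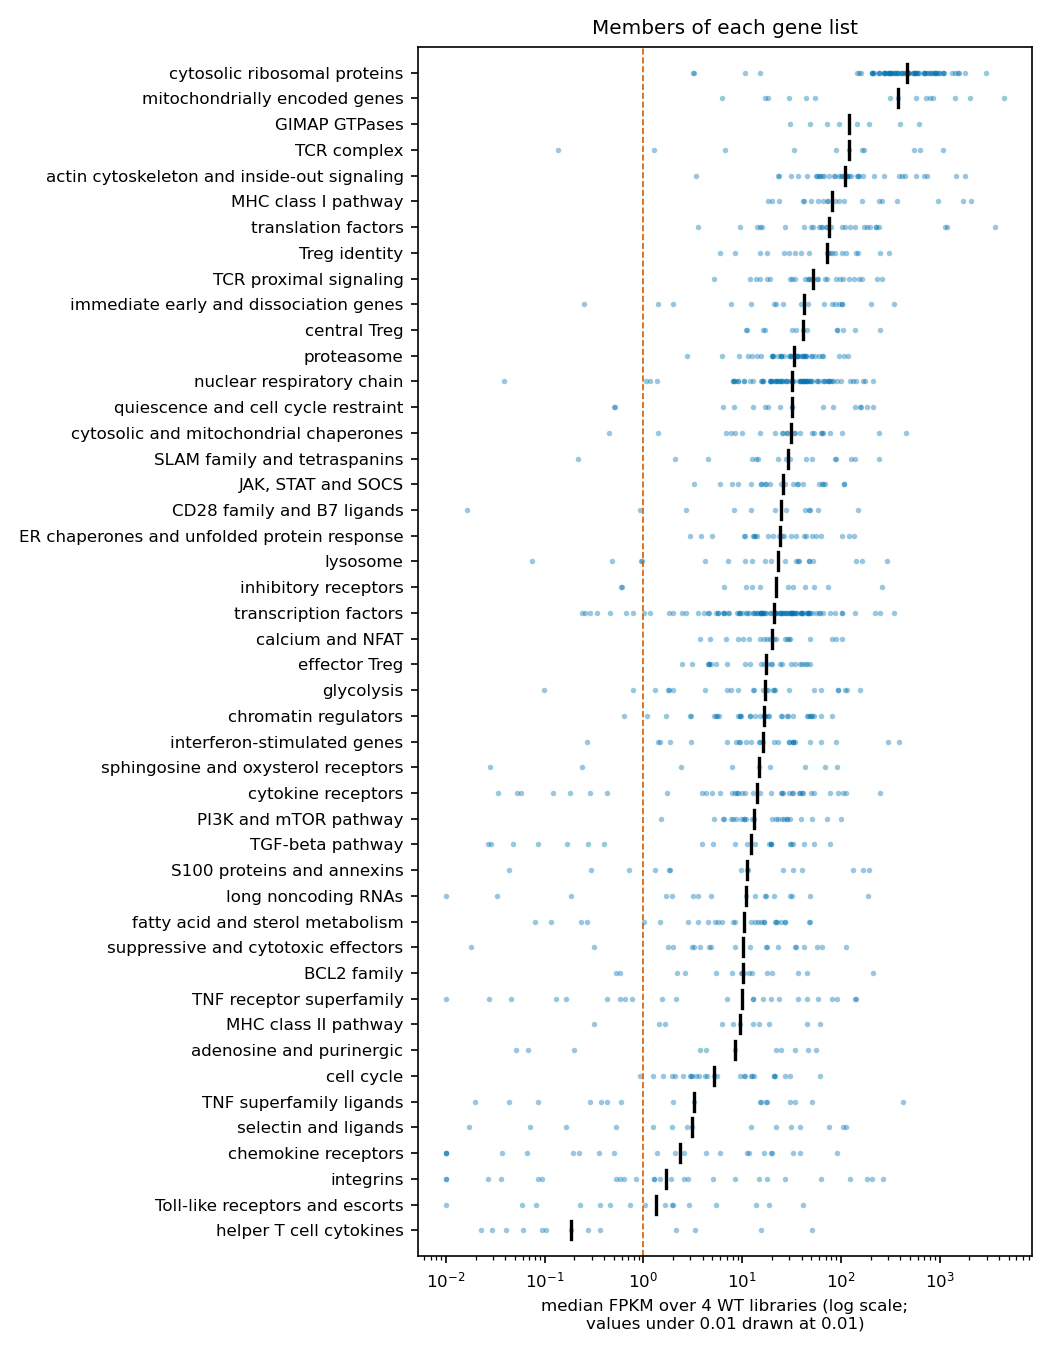
Median FPKM over the 4 WT libraries on a log scale (horizontal) for the members of 46 gene lists (vertical, ordered by the black bar, the median of the members), with 1 point per gene and a dashed line at 1 FPKM. Ribosomal protein genes centre on 463 FPKM and helper T cell cytokines on 0.186 FPKM.

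All 20 Treg identity genes exceeded 1 FPKM and 18 exceeded 10 FPKM. The highest was Izumo1r (folate receptor 4, a surface protein of Tregs) at 511, 304, 311 and 304 FPKM, then Il2rb (the beta chain that CD25 joins) at 424, 249.8, 251 and 228 FPKM. Izumo1r was above Il2rb in all 4 libraries, but their ranges over libraries overlapped. Tnfrsf4 (OX40) had 166, 138, 148 and 136 FPKM and lay within the spread of Ctla4. Further down came Lrrc32 (GARP, which presents latent TGF-beta) at 77.3, Tigit (an inhibitory receptor) at 74.3, Icos (a CD28 relative) at 47.8, Ikzf4 (Eos) at 39.3 and Nrp1 (neuropilin 1) at 26.5 FPKM. The ectoenzymes that make adenosine were unequal, with Nt5e (CD73) at 35.6, 31.4, 32.9 and 37.3 FPKM and Entpd1 (CD39) at 9.95, 7.65, 8.09 and 8.88 FPKM, and the values of the 2 did not overlap.

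Central Treg genes had a higher median than effector Treg genes, as given above, but the levels of the 2 lists overlapped. The medians are of different genes, chosen with earlier results of these data known. The share of central and effector cells was not tested. Tcf7 (TCF-1, a factor of memory and naive T cells) had 445, 256, 236 and 239 FPKM and Klf2 (which maintains homing receptors) 272, 146, 134 and 131 FPKM. Ccr7, the chemokine receptor for lymph node entry, had 202, 96.5, 87.0 and 81.5 FPKM. WT 1 was the highest library for all 3, and 12 of 13 central genes lay above the other libraries' range there, as did 13 of the 24 effector genes and 50.1% of all entries above 1 FPKM. Of the 24 effector genes none exceeded 100 FPKM. Pdcd1 (PD-1) had 81.4, 40.9, 46.9 and 50.8 FPKM, Klrg1 (a receptor of terminally differentiated cells) 43.4, 38.1, 48.2 and 44.2 FPKM and Batf (an AP-1 factor of effector Tregs) 60.7, 34.99, 41.3 and 40.4 FPKM. Il10, the suppressive cytokine, had 2.33, 4.52, 5.10 and 5.97 FPKM and Prdm1 (Blimp-1) 4.72, 4.15, 4.44 and 4.57 FPKM. Both lay at the low end of the effector genes.

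Of 11 genes listed with the T cell receptor complex 10 exceeded 1 FPKM. The exception was Cd8a at 0.138 FPKM, and Trdc, the delta chain constant gene, had 1.27 FPKM. All 27 proximal signaling genes exceeded 1 FPKM. Cd3d had 388, 173, 174 and 156 FPKM and Cd3e 122, 90.1, 89.6 and 88.3 FPKM, both invariant signaling chains. Lck, the kinase that starts the receptor signal, had 332, 231, 228 and 236 FPKM, and Zap70, the kinase after it, 161, 114, 117 and 123 FPKM. Cd5, an inhibitory coreceptor whose level rises with receptor signal strength, had 344, 264, 265 and 252 FPKM. Of 27 proximal signaling genes 26 exceeded 10 FPKM, and Themis, which is needed in thymocyte selection, was lowest at 5.19 FPKM.

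Cytokine receptors were led by the IL-2 receptor. Il2rb at 250.4 FPKM was followed by Il2ra at 114 and Il2rg (the common gamma chain) at 149, 106, 102 and 101.2 FPKM. Il27ra (the receptor for IL-27) had 89.5, 96.6, 89.9 and 96.9 FPKM and Il7r (the receptor for the survival factor IL-7) 71.9, 44.4, 38.6 and 38.8 FPKM. Of the receptors for the inflammatory cytokines IL-23 and IL-12 the specific chains Il23r and Il12rb2 had 0.122 and 0.182 FPKM, while the chain they share, Il12rb1, had 12.2, 14.3, 16.2 and 16.4 FPKM. Signaling below the receptors ran on Jak1, the kinase of many cytokine receptors, at 168, 108, 106 and 99.995 FPKM, Jak3, the kinase of the gamma chain, at 54.7, 66.9, 70.7 and 85.8 FPKM and Stat5b at 80.8, 65.2, 65.8 and 61.2 FPKM. Jak3 was lowest in WT 1, and Jak1 highest there. Stat5b held 78.0%, 77.3%, 77.6% and 76.9% of Stat5a plus Stat5b in the 4 libraries. Socs3 (a feedback inhibitor of cytokine signals) had 56.1, 69.2, 60.6 and 75.6 FPKM and Pim1 (a kinase that STAT5 induces) 102, 113, 122 and 105 FPKM.

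Costimulatory receptors of the TNF receptor family differed widely in level. Tnfrsf4 and Cd27 (a receptor for CD70) were highest, at 143 and 140.4 FPKM, and their spread overlapped. Tnfrsf1b (TNF receptor 2, a growth receptor of Tregs) had 131, 85.4, 93.6 and 90.8 FPKM and Tnfrsf25 (DR3) 28.8, 59.1, 58.1 and 64.0 FPKM, and Tnfrsf25 was lowest in WT 1. Tnfrsf1a, the receptor of most other cells, had 12.9 FPKM. Of the 24 matched members 15 (62.5%) exceeded 1 FPKM, against 63.3% of all protein-coding entries. Among the ligands Ltb (lymphotoxin beta, which shapes lymphoid tissue) had 790.2, 427, 429.8 and 428 FPKM, while Lta (lymphotoxin alpha) had 35.3, 58.4, 53.0 and 49.0 FPKM. Lta was lowest in WT 1 and Ltb highest there.

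Of 13 helper T cell cytokines matched 4 exceeded 1 FPKM, Lta, Tnf at 15.7 FPKM, Ifng and Il4. Ifng, the Th1 cytokine, had 3.58, 3.06, 4.41 and 2.88 FPKM, and Il4, of the Th2 type, 0.903, 2.44, 2.04 and 2.27 FPKM. Il2, the growth factor that Tregs take up from other cells, had 0.303, 0.0534, 0.112 and 0.259 FPKM. In recovered reads the 4 libraries held 5, 1, 2 and 5 reads of Il2 in WT 1, WT 2, WT 3 and WT 4, so its level rests on few reads. Il17a had a median of 0.0296 FPKM and Il5 0.0225 FPKM, the cytokines of the Th17 and Th2 types.

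Of 22 matched chemokine receptors 13 (59.1%) exceeded 1 FPKM, against 63.3% of all protein-coding entries. Of the 22, 8 exceeded 10 FPKM, against 4691 of 15568 protein-coding entries as given above. Ccr7 was followed by Cxcr3 (a receptor for interferon-induced chemokines) at 55.2, 29.2, 36.4 and 40.1 FPKM and Cxcr4 (the receptor for the bone marrow chemokine CXCL12) at 138, 33.4, 31.7 and 29.4 FPKM. Cxcr4 ranked below Cxcr3 in WT 3 and WT 4 and above it in WT 1 and WT 2. Ccr4 and Ccr8, which guide Tregs to skin and inflamed tissue, had 20.2 and 19.8 FPKM and did not differ beyond their spread. S1pr1 (the receptor for exit from lymphoid tissue) had 139.9, 98.8, 82.9 and 83.5 FPKM. Cxcr2, the neutrophil receptor, had reads in WT 1 alone, 0.0909 FPKM on 4 reads, and no read in the other libraries, where 3 reads would give 0.0583 to 0.0631 FPKM.

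Of 26 integrins 16 (61.5%) exceeded 1 FPKM, near the 63.3% of all protein-coding entries, and 4 exceeded 100 FPKM. Itgb7, the beta chain of the gut homing integrin alpha4beta7, had 410.4, 266, 264 and 263 FPKM and Itgb2, the beta chain of LFA-1, 329, 207, 206 and 202 FPKM. Itgal (the LFA-1 alpha chain, which binds ICAM-1) had 252, 174, 181 and 187 FPKM, Itgb1 175, 124, 127 and 121 FPKM and Itga4 48.1, 65.2, 61.5 and 68.7 FPKM. Itga4 was lowest in WT 1 and the other 4 highest there. Itgal took 66.8%, 57.4%, 58.3% and 58.0% of the summed level of 18 alpha chains. Itgae (CD103, the alpha partner of beta7 for epithelium) had 18.04 FPKM and Itgav, which activates latent TGF-beta, 8.46 FPKM. Itgam and Itgax, the alpha chains of myeloid cells, had 0.0933 and 0.526 FPKM. Itga8 had no read in any library, where 3 reads would give 0.0242 to 0.0283 FPKM. Of genes that open integrins from within, Tln1 (talin) had 113, Fermt3 (kindlin-3) 145, Rap1b (a GTPase of integrin activation) 115, Rassf5 (its effector) 102, Rap1a 59.8 and Apbb1ip (RIAM, which recruits talin) 23.8 FPKM.

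The transcription factors were led by Junb (an AP-1 subunit) at 368, 324, 391 and 219 FPKM, Tcf7 at 247 and Ets1 (an ETS factor of lymphocytes) at 341, 227, 221 and 202 FPKM. Of 102 factors listed, 95 exceeded 1 FPKM and 6 exceeded 100 FPKM, Klf2, Jund and Foxp3 being the others. Ikzf1 (Ikaros) had 121, 78.7, 74.9 and 68.3 FPKM, Irf1 62.0 and Myc 46.3 FPKM. Gata3, the Th2 factor that Tregs also use, had 38.2, 33.3, 35.5 and 33.6 FPKM against 4.59 for Tbx21 (T-bet, the Th1 factor) and 5.41 for Bcl6 (the follicular factor). Other immediate early genes also varied between libraries. Fos (an AP-1 subunit that stress induces) had 28.0, 23.7, 37.4 and 12.9 FPKM and Dusp1 (a phosphatase induced with it) 196, 87.0, 105 and 55.9 FPKM, with WT 4 lowest in both, as for Junb.

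Paralog families were read as shares, which no library scaling can alter. Of 65 families with at least 2 matched members the same member was highest in all 4 libraries in 59, the full order was the same in 48, and the highest member held over 50% in 52 and over 90% in 13. Foxp3 held 61.2%, 67.9%, 68.0% and 68.1% of the FOXP family in WT 1, WT 2, WT 3 and WT 4, before Foxp4 at 24.1%, 20.5%, 21.3% and 21.7% and Foxp1 at 14.7%, 11.6%, 10.7% and 10.2%. Ikzf2 held 21.4%, 37.1%, 38.3% and 39.9% of the Ikaros family and Ikzf1 51.5%, 34.1%, 32.4% and 29.9%, so Ikzf1 was the highest in WT 1 and Ikzf2 in the others. Rac2, the GTPase of blood cells, held 84.9%, 86.6%, 87.1% and 86.6% of the Rac family, although 51.4% of the exon bases of Rac1 overlap Daglb on the other strand. Pik3cd, the leukocyte PI3K subunit, held 77.5%, 80.9%, 80.5% and 81.8% of its family. Hk1 held 93.7%, 88.8%, 89.9% and 88.4% of the hexokinases, and Slc2a3 53.6%, 58.0%, 55.9% and 62.3% of the pair Slc2a3 and Slc2a1, both glucose transporters. Hsp90ab1 (cytosolic HSP90 beta) held 78.9%, 74.5%, 76.2% and 75.5% of its family, and Hsp90b1 (gp96 of the endoplasmic reticulum) had 62.9, 50.7, 44.4 and 51.5 FPKM. Tgfb1 held 99.5%, 98.99%, 99.3% and 99.4% of the 3 TGF-beta ligands. The 6 families whose top member changed between libraries were those of phosphofructokinase, Ikaros, SOCS, ORAI, IP3 receptors and CXC chemokine receptors.

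**Figure D4:**
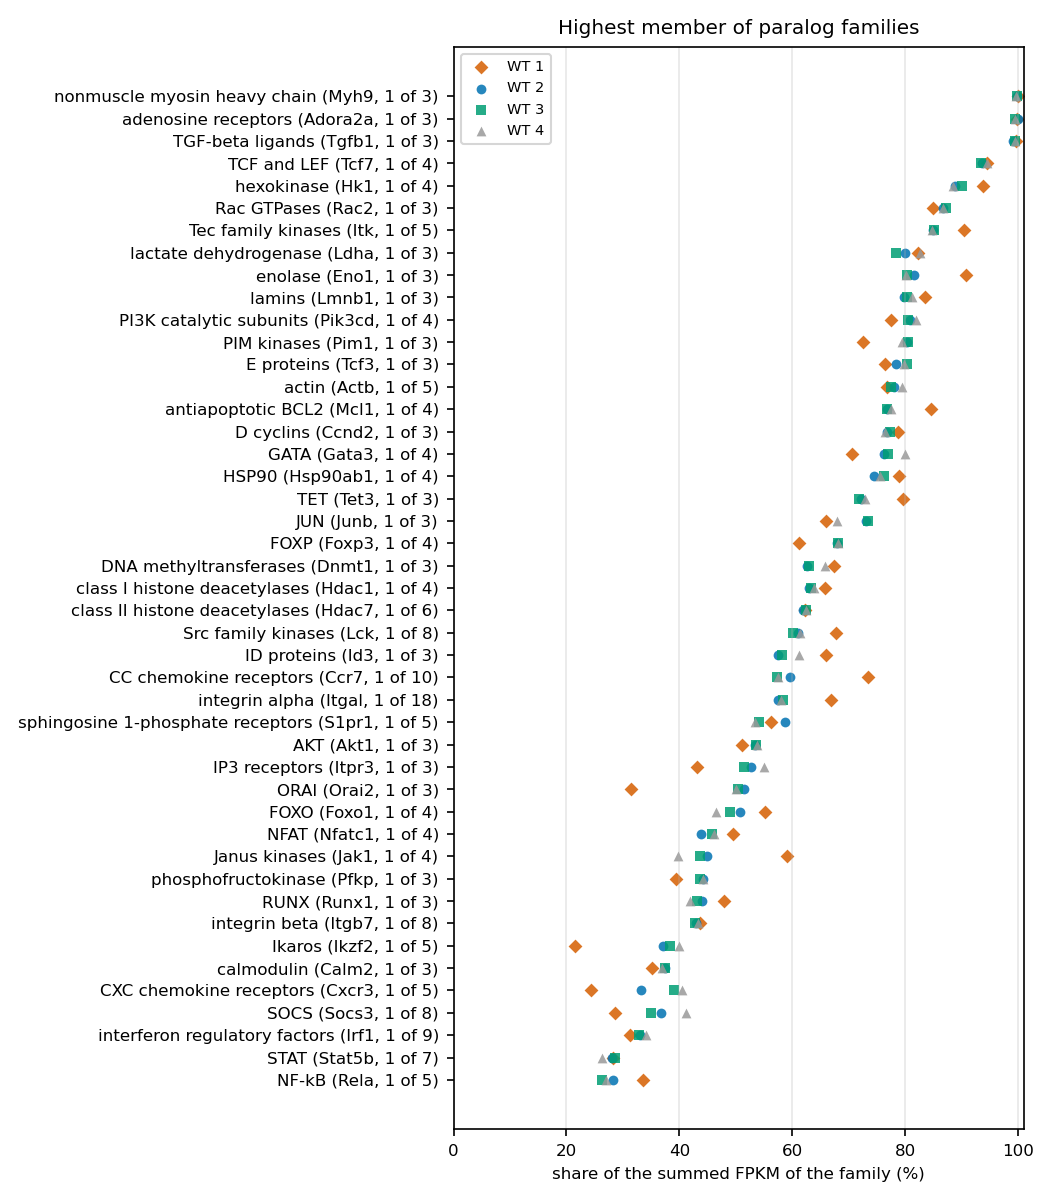
Share (%) of the summed FPKM of a paralog family held by its highest member (horizontal) for families with at least 3 matched members (vertical, with the member's name), 1 point for each WT library. Points of WT 2, WT 3 and WT 4 lie close together, and WT 1 departs most for Orai2, Ikzf2, Ccr7, Jak1 and Cxcr3.

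The BCL2 family, quiescence and cell cycle lists had medians of 10.2, 31.9 and 5.25 FPKM over their members. Mcl1 (an antiapoptotic protein that IL-2 sustains) had 292, 212, 209.9 and 197 FPKM and Bcl2 38.3, 50.6, 48.3 and 43.2 FPKM, so Mcl1 held 84.5%, 76.7%, 76.8% and 77.4% of the 4 antiapoptotic genes. Btg1 (an antiproliferative protein) had 364, 214, 213 and 189 FPKM and Cdkn1b (the inhibitor p27) 63.3, 67.0, 63.5 and 68.4 FPKM. Pcna (the replication clamp) had 98.6, 57.4, 63.8 and 59.6 FPKM and Mki67 (Ki-67, a marker of cycling cells) 3.10, 12.02, 14.3 and 18.9 FPKM. Mki67 was thus lower in WT 1 than elsewhere, while Pcna was higher there. Of 27 cell cycle genes 11 exceeded 10 FPKM, against 4691 of 15568 protein-coding entries as given above. Cdk1, the mitotic kinase, had 2.09 FPKM. Gimap3 and Gimap4, GTPases of T cell survival, had 518, 628, 601 and 711 and 413, 383, 376 and 419 FPKM.

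Metabolic genes covered glycolysis, respiration and lipid synthesis. Gapdh, Ldha and Pkm, enzymes of glycolysis, had medians of 157, 115 and 109 FPKM, and Hk2 (the inducible hexokinase) 1.82 FPKM. Of 79 nuclear respiratory chain genes 78 exceeded 1 FPKM, with Cox8a (a cytochrome oxidase subunit) at 175 FPKM. Acly (which makes cytosolic acetyl-CoA) had 48.7 FPKM, Fasn (fatty acid synthase) 22.4 and Cpt1a (the carnitine shuttle for oxidation) 27.4 FPKM. Scd1 had 0.235 FPKM and its paralog Scd2 27.2 FPKM, both fatty acid desaturases. Of the endoplasmic reticulum list all 24 exceeded 1 FPKM, led by Calr (calreticulin) at 242, 134, 136 and 134 FPKM and followed by Hspa5 (BiP) at 150.3, 100.1, 103 and 85.4 FPKM.

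Interferon-stimulated genes were uneven. Ifi27l2a had 654, 292, 407 and 373 FPKM and Ly6e (a GPI-anchored surface protein) 594, 308, 298 and 273 FPKM, whereas Isg15 (a ubiquitin-like modifier) had 21.2 and Rsad2 (viperin) 1.48 FPKM. Tlr1 (a receptor for bacterial lipopeptides) had 30.9, 43.5, 43.4 and 39.9 FPKM and Tlr4 (the receptor for lipopolysaccharide) 0.731 FPKM. Of the suppressive effectors Lgals1 (galectin-1) had 163, 96.8, 114 and 113 FPKM and Penk (proenkephalin) 65.8, 52.9, 63.1 and 65.4 FPKM, while Gzmb (granzyme B) had 4.57 and Prf1 (perforin) 1.76 FPKM.

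The spread among libraries was mostly that of WT 1. Its directions are those of the deposited FPKM and depend on the scaling. The 20 Treg identity genes summed to 2142, 1640, 1717 and 1636 FPKM in WT 1 to WT 4. Their share of the protein-coding FPKM was 0.534, 0.664, 0.692 and 0.686%, so WT 1 was highest by sum and lowest by share. Over WT 2, WT 3 and WT 4 the median coefficient of variation of entries above 10 FPKM was 4.68%. Of the 12023 entries above 1 FPKM, 720 were more than 2-fold higher in WT 1 than the median of the other 3 and 2119 more than 2-fold lower. Ribosomal protein genes had a median ratio of 2.51, and 77 of 79 exceeded the range of the other libraries, against 50.1% of all entries above 1 FPKM. Long noncoding RNAs had a median ratio of 0.341, and 14 of the 17 matched lay under that range, against 39.2% of all entries above 1 FPKM, although 3 of the 17 did not exceed 1 FPKM. Examples are Malat1 (a nuclear RNA) with 24.9, 182, 197 and 279 FPKM and Neat1 (the RNA of paraspeckles) with 0.670, 10.7, 11.2 and 15.4 FPKM. Above 500 exon bases the ratio fell with exon length, with medians of 1.51 for 33 protein-coding genes of at most 500 exon bases, 1.68 up to 1000, 1.49 up to 2000, 1.27 up to 4000, 1.08 up to 8000 and 0.943 above 8000. Leaving out the ribosomal protein genes gave 1.65 up to 1000 bases and 0.943 above 8000. Kmt2d, a histone methyltransferase with a long transcript, had 15.3, 45.2, 45.4 and 56.7 FPKM, and Macf1, a cytoskeletal linker with another, 8.57, 73.3, 69.8 and 76.0 FPKM. WT 1 also had the highest Cxcr4, at 4.34 times the median of the others, and Ddit4 (an mTOR inhibitor induced by glucocorticoids and stress) with 442, 140.0, 128 and 117 FPKM and Tsc22d3 (GILZ, a glucocorticoid target) with 124, 47.7, 36.4 and 25.3 FPKM. What set WT 1 apart was not tested.

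**Figure D5:**
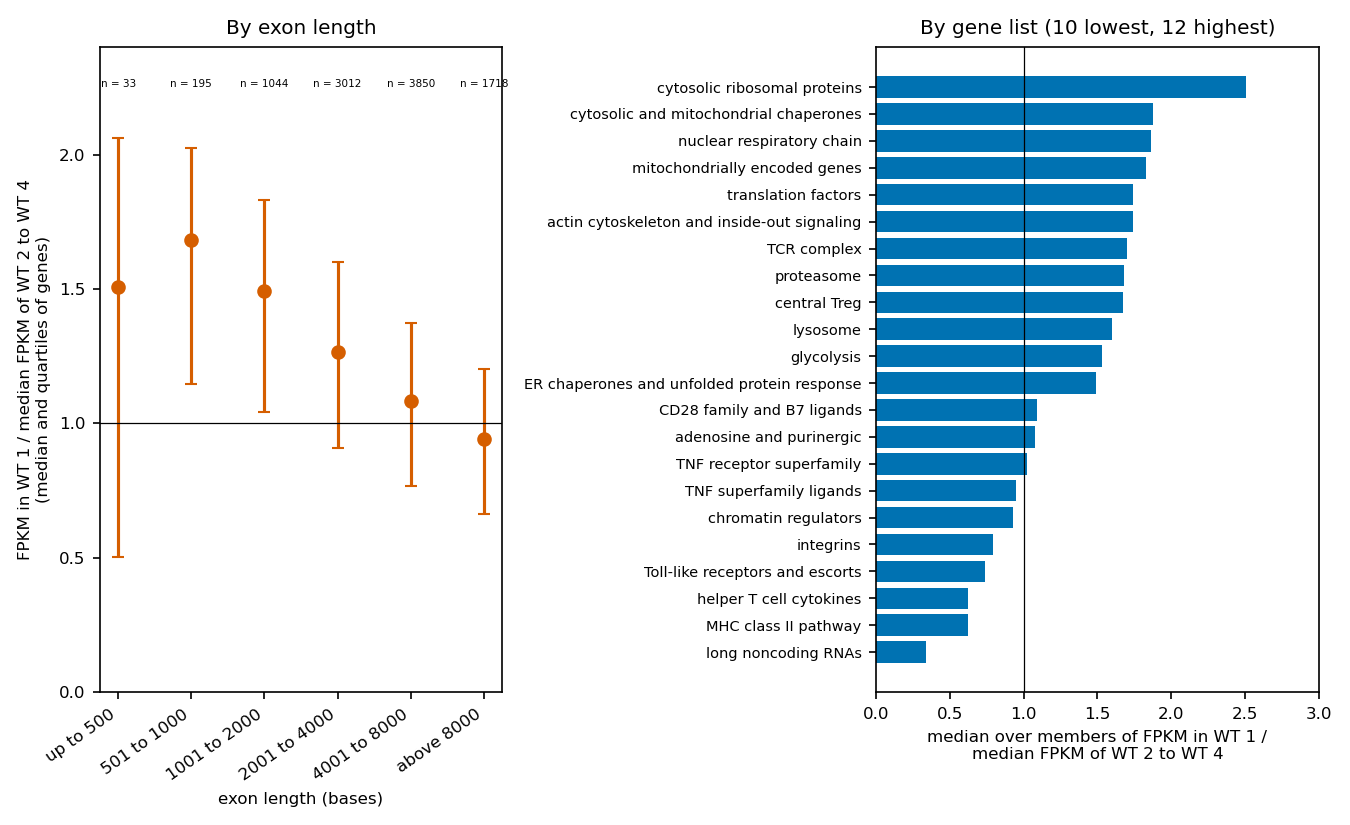
Ratio of the FPKM in WT 1 to the median FPKM of WT 2, WT 3 and WT 4, as the median with quartiles of protein-coding genes above 1 FPKM in 6 classes of exon length (left) and as the median over members for the 10 gene lists with the lowest and the 12 with the highest ratio (right). The ratio falls to 0.943 above 8000 exon bases, and ribosomal protein genes have 2.51.

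WT 3 and WT 4 also departed for some entries. WT 3 was highest for Gm23935 and for CT010467.1, an entry annotated as ribosomal RNA, with 661, 156, 3509 and 154 FPKM. It was also highest for the entry of Lars2 (a mitochondrial tRNA ligase) with 62.4, 7.81, 253 and 5.16 FPKM. WT 1 came next in each, at 10.2, 4.25 and 7.99 times the median of WT 2, WT 3 and WT 4. The libraries had the same order for Gm24270, a 57-base entry, with 275, 16.1, 912 and 10.4 FPKM. Whether the reads at Lars2 come from its own transcript was not tested. WT 4 was highest for Ighm, Igkc and Igha, as given above. Among protein-coding entries with a median of at least 10 FPKM the smallest variation over WT 2, WT 3 and WT 4 was that of Hdac1 (a histone deacetylase), at 63.2, 63.3 and 63.3 FPKM. It is a minimum over 4691 entries and rests on 3570, 3397 and 3680 reads. Hdac1 had 91.6 FPKM in WT 1.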

How the data were processed

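Splenic Tregs of 9 libraries, 4 WT and 5 KO, were sequenced as strand-specific paired-end RNA-Seq, and the 4 WT libraries are described here. Per the submitters' processing notes, bases were called with CASAVA, reads were cleaned with fastp and the genome build was mm10, without versions. For the aligner, the counter, their annotation and use of strand, the choice is not given in sources used here. The deposited values are FPKM, which the authors made from reads per gene, gene length and 1 constant per library. Multiplied by the length of the merged exons (GENCODE release M21 on GRCm38, which is mm10), the FPKM of 24389 of 25500 entries (95.6%) were whole reads in all 4 libraries within 0.01 read. Recovered reads, in units of 1000000, numbered 16.7, 14.4, 13.9 and 14.6 in WT 1 to WT 4. They were 1.15, 0.877, 0.891 and 0.864 times the total that the constant implies, so the constant carries a scaling across libraries. Low values rest on few reads, and the limit of 3 reads covers counting error only.

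Entries were matched by symbol, 25194 to 1 gene of the annotation, and of 10 repeated symbols the entry with the higher median was used. Medians over the 4 libraries were computed in Python 3.11.15 with pandas 2.3.3, for 55 gene lists of which 9 mark other cells, and 66 paralog families. The recovery was tested on simulated data. Genes were named by a rule: the 5 markers, the 30 highest entries, the 5 highest members of each list (15 for transcription factors), members near 0 that define another lineage, all members of paralog families, and the 10 most variable entries in each direction with a median of at least 10 FPKM. The text gives a selection of these, and named genes outside the rule were chosen after their values were seen. The members and lists were chosen with earlier results of these data known. Other settings tried were each library left out, means, TPM scaling, median-ratio scaling, other thresholds, and, chosen after seeing the data, shares over protein-coding entries or without entries under 200 bases.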

Additional observations from a re-analysis of the deposited data

Results flagged for a closer look

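In 65 of 170 genes given by value, 1 of the 4 libraries lay so far from the others that its gap to the nearest as a part of the whole range exceeded Dixon's limit for 4 samples at the 95% level, while chance sets about 1 in 20 groups apart. The genes share the departure of WT 1 and some were named for their variation, so the count cannot be read against that share. WT 1 was the high library for 58 of them and the low one for 3, and another library was high for 4. These directions are of the deposited FPKM and depend on its scaling across libraries. Of Treg and other T cell genes, WT 1 was high for Ccr7 at 202, Ccr8 at 26.5, Cd3d at 388, Cd3e at 122, Cd4 at 258, Cd5 at 344 and Cd8b1 at 10.9 FPKM. Also, of this group, WT 1 was high for Il2rb at 424, Il2rg at 149, Izumo1r at 511, Jak1 at 168, Klf2 at 272, Lck at 332 and Tcf7 at 445 FPKM. Further, in this group, WT 1 was high for Trac at 919 FPKM. Of Treg and other T cell genes, WT 1 was low for Ikzf2 at 50.1 FPKM. Of receptors, ligands and adhesion genes, WT 1 was high for Apbb1ip at 35.3, Cxcr2 at 0.0909, Cxcr4 at 138, Fermt3 at 179.5, Itgal at 252, Itgb1 at 175 and Itgb2 at 329 FPKM. Also, of this group, WT 1 was high for Itgb7 at 410.4, Ltb at 790.2, Rap1a at 96.6, Rap1b at 226, Rassf5 at 148 and Tmsb4x at 3677 FPKM. Of receptors, ligands and adhesion genes, WT 1 was low for Tnfrsf25 at 28.8 FPKM. Cxcr2 had 4 reads in WT 1 and none elsewhere, so its gap is its whole range by construction and says nothing of WT 1. Of antigen presentation, translation and respiration genes, WT 1 was high for B2m at 4367, Cox6a1 at 312, Cox8a at 350.5, Eef1a1 at 9631, H2-D1 at 1646, H2-K1 at 2399 and Rpl13a at 30.6 FPKM. Also, of this group, WT 1 was high for Rpl19 at 2345, Rplp1 at 7851, Rps21 at 1872 and Rps3a1 at 4039 FPKM. Of the other genes, WT 1 was high for Acly at 72.3, Btg1 at 364, Calr at 242, Cd53 at 489, Cd79b at 21.5, Chd4 at 99.9 and Ctss at 309 FPKM. Also, of this group, WT 1 was high for Ddit4 at 442, Gapdh at 304, Hdac1 at 91.6, Isg15 at 41.3, Laptm5 at 597, Ldha at 244 and Ly6e at 594 FPKM. Further, in this group, WT 1 was high for Mcl1 at 292, Pcna at 98.6, Pkm at 199.6, Prf1 at 4.21 and S100a10 at 362 FPKM. Of the other genes, WT 1 was low for Macf1 at 8.57 FPKM. CT010467.1 was high in WT 3, at 3509 FPKM. Cd8a was high in WT 4, at 0.424 FPKM. Ighm was high in WT 4, at 570.3 FPKM. Scd1 was high in WT 4, at 0.515 FPKM.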

How the results depend on the processing

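With each WT library left out in turn the entries above 1 FPKM numbered 11941 to 12205, against 12023. They numbered 12076 by the mean, 12020 with median-ratio factors, 14758 after rescaling to TPM, and 13722, 10367 and 7641 at thresholds of 0.5, 2 and 5 FPKM. The share of the 100 highest entries was 29.96% to 43.3% with a library left out, 35.01% without mitochondrially encoded genes and 30.4% without entries shorter than 200 bases, the last chosen after seeing the data. The families in which 1 member held most of the summed level numbered 51 to 53 with a library left out and 45 when only members above 1 FPKM counted, against 52. For single genes and lists, leaving out a library or taking the mean cannot move a median of 4 values by more than their SD, so no count is read from those settings. Of 46 gene list shares 32 moved by more than 1 SD when taken over the protein-coding FPKM, whose total leaves out Gm23935 and other short entries. No paired analysis was possible because the values come from no comparison between groups, and the shared replicate numbers were not used. Few reads limit genes near 0, and levels of short, repeated or overlapping genes are uncertain.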

Other observations

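Some groups of genes that the text above does not describe were also well expressed. Among chromatin regulators Chd4 (a remodeler of the NuRD complex) had 99.9, 81.3, 81.5 and 78.2 FPKM in WT 1, WT 2, WT 3 and WT 4, and Kmt2a (a histone methyltransferase) had 22.3, 47.5, 46.5 and 54.2 FPKM, with WT 1 lowest for Kmt2a. Dnmt1, which maintains DNA methylation, held 67.3%, 62.6%, 63.0% and 65.7% of the 3 DNA methyltransferases. Of the lysosomal list Laptm5 (a lysosomal membrane protein of blood cells) led with 597, 289.9, 296 and 286 FPKM, and Ctss (cathepsin S) had 309, 137, 142 and 140.2 FPKM. Of the SLAM and tetraspanin list Cd53 (a leukocyte tetraspanin) led with 489, 252, 235 and 222 FPKM. S100a10 (a partner of annexin A2) had 362, 189, 200.1 and 189 FPKM, while S100a4 had 1.85 FPKM, but 51.7% of the exon bases of S100a4 overlap a second gene model, so its value is uncertain. Among receptors for purines P2rx7 (an ATP-gated channel) had 49.6, 43.9, 45.0 and 47.7 FPKM and Adora2a (an adenosine receptor) held 99.7%, 100%, 99.4% and 99.4% of the 3 matched adenosine receptors.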
